A study of Mus musculus with 20 samples.

Results

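Mouse pre-B cell lines that lack both Artemis and ATM were set against wild type lines on Affymetrix Mouse 430 v2 arrays. The members are all 7 arrays whose labels place them in either group, of 20 arrays in the study: 4 arrays of 2 Artemis- and ATM-deficient lines, with 2 technical arrays a line, and 3 arrays of 3 wild type lines. The v-abl oncogene had transformed all 5 lines, and each was held for 48 hours in 3 uM STI571 (imatinib), an inhibitor of the v-abl kinase. The 3 Artemis-deficient v-abl lines, treated in the same way, carry one of the 2 deficiencies and are used below to split the difference into steps. Also in the fit, with the same treatment, were 3 RAG-2-deficient lines and 3 Artemis-deficient lines expressing dominant negative IkB. These further lines enter the estimate of spread, shared by all 14 lines, behind each p value. The fit assumes the same spread in every group, which single genes did not always show. In AW112010 the standard deviation was 1.36 among wild type lines and 0.20 among lines expressing dominant negative IkB. In Naxe it was 0.01 and 0.10. A narrower spread in the further lines can lower p values, and its effect was not tested group by group. The lines expressing dominant negative IkB are not among those called Artemis-deficient below. Neither the deleted parts of the genes nor the animals behind each line are given in the sources used here, so p values measure only the spread between these lines, part of which may be technical.

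Developing B cells assemble their antigen receptor genes by cutting DNA with the RAG recombinase. Arrest of v-abl lines by STI571 is known to induce RAG and recombination of the immunoglobulin kappa light chain locus. Artemis is the nuclease that opens the hairpins RAG leaves on coding ends, so that without it these ends stay unjoined. ATM is the kinase that senses double-strand breaks, holds the ends together and switches on transcription through p53 and NF-kB. Wild type lines cut and rejoin their DNA, whereas Artemis- and ATM-deficient lines cut it, cannot open the hairpins and lack the kinase that reports the breaks.

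Levels are given as log2(signal + 6), where a signal of 0 lies at 2.58, and differences are log2 differences of the Artemis- and ATM-deficient minus the wild type lines with their standard error (SE). A probe set or gene was called at an adjusted p below 0.05 from limma over all probe sets. Technical arrays of the same Artemis- and ATM-deficient line correlated at 0.982 and 0.984 across probe sets, and the 2 lines with each other at 0.939. The wild type lines correlated with each other at 0.904 to 0.929, and lines of different groups at 0.893 to 0.926, ranges that overlap. Median signals and empty cells were alike on all arrays, and the number of lines limits the precision.

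The labels were checked on the targeted genes and on lineage genes. Atm was 5.44 and 5.48 in the 2 Artemis- and ATM-deficient lines on the dimmer of its 2 probe sets, against 7.46, 7.41 and 7.42 in the 3 wild type lines, a difference of -1.97 ± 0.15 (SE, adjusted p = 1.69e-04). On the brighter probe set the difference was -0.58 ± 0.17 and was not called (adjusted p = 0.125). The title of wild type line 3 contains the letters ATM. Its source label says wild type and its Atm level matched those of lines 1 and 2, so it was kept, and counts without it are given below. No probe set is named for Dclre1c, which encodes Artemis, and its transcript is not analysed here. The pre-B receptor gene Vpreb1 was 12.15 and 12.44 in Artemis- and ATM-deficient lines and 11.78, 11.31 and 11.38 in wild type lines, and Cd79a, the Ig-alpha chain of B cells, was 12.60 and 12.53 in Artemis- and ATM-deficient lines and 12.33, 12.41 and 12.44 in wild type lines. Xist lay at 11.71 and 11.41 in Artemis- and ATM-deficient lines and at 12.09, 11.83 and 11.65 in wild type lines. The summed signal of 10 T and NK cell markers was 18.8 and 36.5 in Artemis- and ATM-deficient lines, against 40.3, 29.3 and 31.4 in wild type lines. That of 11 neutrophil and monocyte markers was 909 and 248 in Artemis- and ATM-deficient lines, against 151, 411 and 202 in wild type lines. Itgam, an integrin chain of myeloid cells, made up most of the first sum, at a level of 9.62 in Artemis- and ATM-deficient line 1, and Lyz2 was 3.42 there; the part of such cells in the results was not tested.

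Of 22220 probe sets tested, 202 (0.909%) were called, 94 higher (0.423%) and 108 lower (0.486%) in Artemis- and ATM-deficient lines. Taking 1 probe set per gene, 102 of 9977 genes (1.02%) were called, 47 higher (0.471%) and 55 lower (0.551%). For comparison, over the lines with a value, the Artemis- and ATM-deficient lines lay above all wild type lines in 1235 genes (12.4%) and below them in 1644 (16.5%), with no test. The called genes had no overlap between the groups. Of the 202 called probe sets, 43 had a group mean below 4, where signals are low. Without wild type line 3 the count was 169 probe sets, 108 of them among the 202. The count depended most on Artemis- and ATM-deficient line 2: without it 27 probe sets were called, against 189 without line 1, and without wild type line 1 it was 87. With only the 5 lines of the 2 groups in the fit, 10 probe sets were called, so the p values given here rest on a spread shared by all 14 lines of the study, and with the 4 technical arrays as a random block the count was 383. Of 107 called results followed through these settings, 7 kept their call with only the 2 groups in the fit: Dmrta2, A630023P12Rik, Ccdc74a, Cldn34c1 and the unnamed probe sets 1455869_at, 1431213_a_at and 1458719_at.

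**Figure D1:**
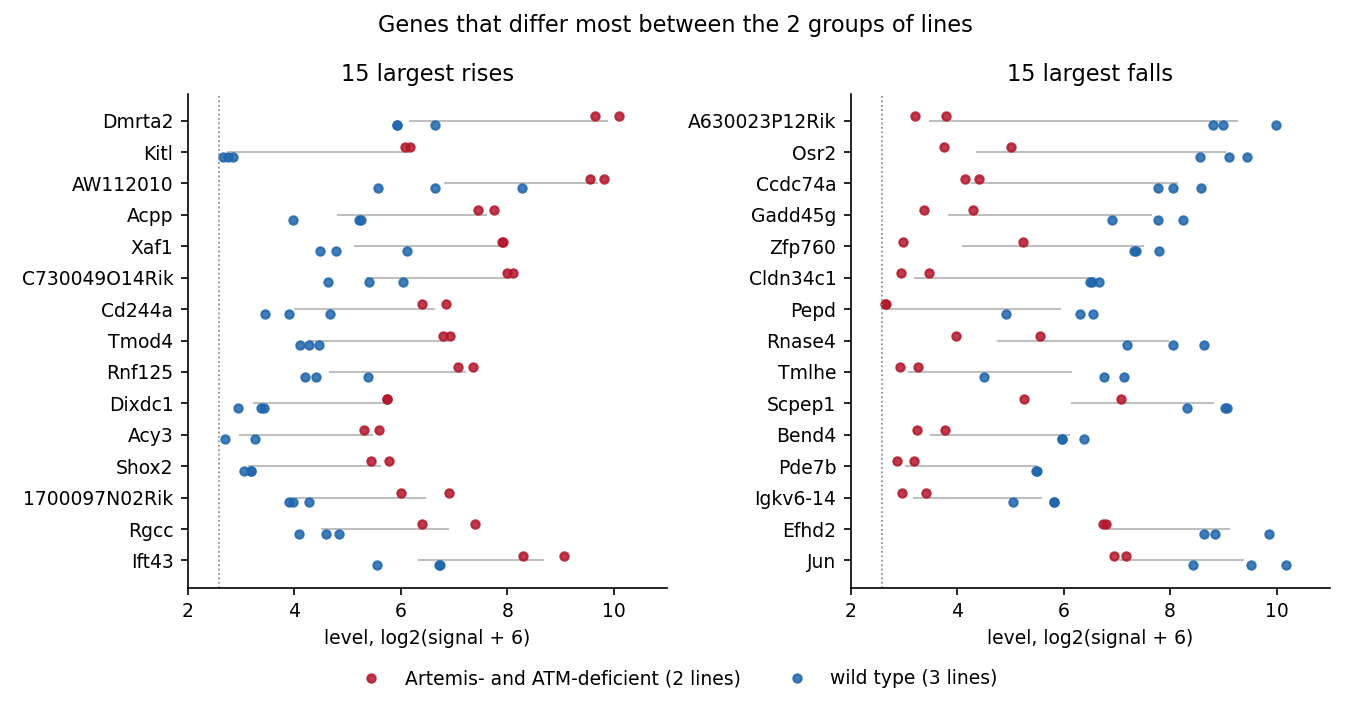
Levels, as log2(signal + 6), of the 15 genes with the largest rises (left) and the 15 with the largest falls (right) among called genes. Red points are the 2 Artemis- and ATM-deficient lines, blue points the 3 wild type lines (2 for Acy3 and Pde7b, which have an empty cell), grey lines join the group means, and the dotted line is a signal of 0; no gene's groups overlap, and Kitl and Pepd each have 1 group close to the dotted line.

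The largest rise among named genes was that of Dmrta2, a transcription factor of the DMRT family. It was 9.65 and 10.11 in the Artemis- and ATM-deficient lines, against 5.93, 5.92 and 6.65 in wild type lines (difference 3.71 ± 0.68, adjusted p = 0.0305). The Artemis-deficient lines spanned 6.17 to 9.43, so lines with the same label differed widely in this gene. Kitl, which encodes the ligand of the KIT receptor, was 6.08 and 6.18 in Artemis- and ATM-deficient lines and 2.65, 2.75 and 2.84 in wild type lines, close to a signal of 0 (3.38 ± 0.44, adjusted p = 0.00797). Kitl passed the filter on low signals only through the 2 Artemis- and ATM-deficient lines, so the filter itself favoured a rise. The Artemis-deficient lines were at 3.59, 3.22 and 2.77, and the difference of Kitl between Artemis- and ATM-deficient and Artemis-deficient lines was called too (2.93 ± 0.43, adjusted p = 0.0222). Cd244a, a receptor of the SLAM family known from NK cells, was 6.84 and 6.40 in Artemis- and ATM-deficient lines and 3.90, 4.67 and 3.46 in wild type lines (2.61 ± 0.31, adjusted p = 0.00464). It was called on both of its probe sets, and the Artemis-deficient lines, at 6.68, 6.78 and 6.60, had the level of the lines that also lacked ATM.

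Apobec3, a cytidine deaminase that restricts retroviruses, rose to 8.21 and 7.87 in Artemis- and ATM-deficient lines, against 6.63, 5.56 and 6.00 in wild type lines (1.98 ± 0.25, adjusted p = 0.00549). The homeobox gene Shox2 was 5.43 and 5.77 in Artemis- and ATM-deficient lines and 3.05 to 3.19 in wild type lines (2.46 ± 0.37, adjusted p = 0.0187). Like Kitl, Shox2 passed the filter on low signals only through the Artemis- and ATM-deficient lines. The Artemis-deficient lines were close to wild type in both genes, at 5.90 to 6.14 for Apobec3 and at 2.71 and 3.10 for Shox2, which has 1 empty cell there. The other large rises, between 2.34 and 2.85, were those of AW112010, Acpp (an acid phosphatase), Xaf1 (an interferon-induced partner of the apoptosis inhibitor XIAP), C730049O14Rik, Tmod4 (which caps actin filaments), Rnf125 (a ubiquitin ligase), Dixdc1 (of the Wnt pathway), Acy3 (an aminoacylase), 1700097N02Rik, Rgcc (a cell cycle regulator) and Ift43 (of the cilium). The probe sets of Xaf1 disagreed: the brightest rose by 2.77 ± 0.40, while another gave -1.32 and was not called (adjusted p = 0.235).

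The largest fall of a named gene was that of A630023P12Rik, at 3.79 and 3.20 in Artemis- and ATM-deficient lines and 8.80, 9.98 and 8.98 in wild type lines (-5.76 ± 1.02, adjusted p = 0.0310). Osr2, a zinc finger transcription factor, was 5.0 and 3.74 in Artemis- and ATM-deficient lines and 9.11, 8.56 and 9.44 in wild type lines (-4.66 ± 0.68, adjusted p = 0.0105). On the brighter of its 2 probe sets, Ccdc74a was 4.15 and 4.40 in Artemis- and ATM-deficient lines, against 8.06, 8.59 and 7.77 in wild type lines (-3.86 ± 0.40, adjusted p = 0.00218). The other probe set of Ccdc74a differed by 0.05 ± 0.31 (adjusted p = 0.968), and with the 2 averaged the difference was -1.91 (adjusted p = 0.0100). Osr2 and Ccdc74a were already low in Artemis-deficient lines, at 3.52 to 5.96 and at 3.89 to 4.33. Gadd45g, a stress-induced growth arrest gene, was 4.30 and 3.38 in Artemis- and ATM-deficient lines and 7.77, 6.91 and 8.24 in wild type lines (-3.80 ± 0.73, adjusted p = 0.0371).

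Pepd, a peptidase that releases proline from dipeptides, lay at 2.66 and 2.64 in Artemis- and ATM-deficient lines, close to a signal of 0, against 6.31, 4.91 and 6.55 in wild type lines (-3.27 ± 0.42, adjusted p = 0.00997). The zinc finger gene Zfp760 was 2.97 and 5.24 in Artemis- and ATM-deficient lines, which differ from each other, and 7.37, 7.32 and 7.80 in wild type lines (-3.39 ± 0.49, adjusted p = 0.00976). Tmlhe, the first enzyme of carnitine synthesis, was 2.93 and 3.27 in Artemis- and ATM-deficient lines and 4.50, 6.76 and 7.14 in wild type lines (-3.03 ± 0.58, adjusted p = 0.0406). These 3 genes were at or above 6.26 in every Artemis-deficient line and were called lower in that comparison as well. The remaining large falls, between -3.36 and -2.34, were those of Cldn34c1, the secreted ribonuclease Rnase4, the carboxypeptidase Scpep1, Bend4, the cAMP phosphodiesterase Pde7b, the light chain segment Igkv6-14 and the calcium-binding protein Efhd2.

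Probe sets with no gene name held the strongest call of all. Probe set 1455869_at, singled out after its values were seen, was 4.80 and 4.37 in Artemis- and ATM-deficient lines and 13.02, 13.25 and 12.43 in wild type lines (-8.32 ± 0.33, adjusted p = 8.92e-07). All 3 Artemis-deficient lines were at 12.69 to 13.13, and the RAG-2-deficient lines with a value were at 4.00 and 2.73. Probe set 1431213_a_at was 6.69 and 5.46 in Artemis- and ATM-deficient lines and 12.01 to 13.20 in wild type lines, with 5.69, 6.08 and 10.23 in the RAG-2-deficient lines. Probe set 1458719_at was at 3.46 and 3.43 in Artemis- and ATM-deficient lines and at 6.61 to 7.27 in wild type lines, and was high in the RAG-2-deficient lines, at 5.95 to 6.58.

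NF-kB is a family of transcription factors, with RelA and RelB among its subunits, that IkB proteins hold in the cytoplasm. Of 33 NF-kB target and regulator genes, 27 passed the filter on low signals, and 3 of them were called, all lower in Artemis- and ATM-deficient lines. Of all genes, 0.551% were called lower. The median difference of the 27 was -0.35, against -0.03 over all 9977 genes, and, over the lines with a value, the Artemis- and ATM-deficient lines lay below all wild type lines in 11 of the 27 (40.7%), against 16.5% of all genes. The called members include a subunit, an inhibitor and a target. Relb, the RelB subunit, was 5.43 and 4.79 in Artemis- and ATM-deficient lines and 6.86, 6.57 and 6.89 in wild type lines (-1.66 ± 0.20, adjusted p = 0.00467). Relb was called without each of the 5 lines in turn, whereas the number of list members called lower was 1 without wild type line 1 or either Artemis- and ATM-deficient line, and 0 with only the 2 groups in the fit.

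Nfkbie, which encodes IkB epsilon, was 7.95 and 8.12 in Artemis- and ATM-deficient lines and 9.50, 8.97 and 8.81 in wild type lines (-1.06 ± 0.19, adjusted p = 0.0305). The Artemis-deficient lines, at 10.28, 9.97 and 10.28, lay above both groups, and Nfkbie was the 1 gene of the 102 called in both steps. Cd69, an early activation antigen that retains lymphocytes in tissue, was 7.86 and 7.67 in Artemis- and ATM-deficient lines and 9.40, 10.28 and 9.16 in wild type lines (-1.85 ± 0.39, adjusted p = 0.0492). Nfkb2, which encodes the p100 precursor and partner of RelB, differed by -0.47 ± 0.19 on its brighter probe set (adjusted p = 0.271). On another of its probe sets, chosen after its values were seen, Nfkb2 was 4.33 and 4.27 in Artemis- and ATM-deficient lines and 6.83, 6.05 and 6.30 in wild type lines (-2.09 ± 0.28, adjusted p = 0.00795). There the Artemis-deficient lines were at 7.16 to 7.71, whereas the RAG-2-deficient lines, at 3.84 to 4.60, had the level of the Artemis- and ATM-deficient lines. Nfkbia, which encodes IkB alpha, did not pass the test, at 11.85 and 11.33 in Artemis- and ATM-deficient lines and 12.10, 11.75 and 11.56 in wild type lines (-0.21, 95% interval -0.66 to 0.23). Gadd45b, with 5.54 and 6.15 in Artemis- and ATM-deficient lines and 3.94, 4.53 and 3.66 in wild type lines, missed the threshold in the other direction (1.80 ± 0.43, adjusted p = 0.0726).

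**Figure D2:**
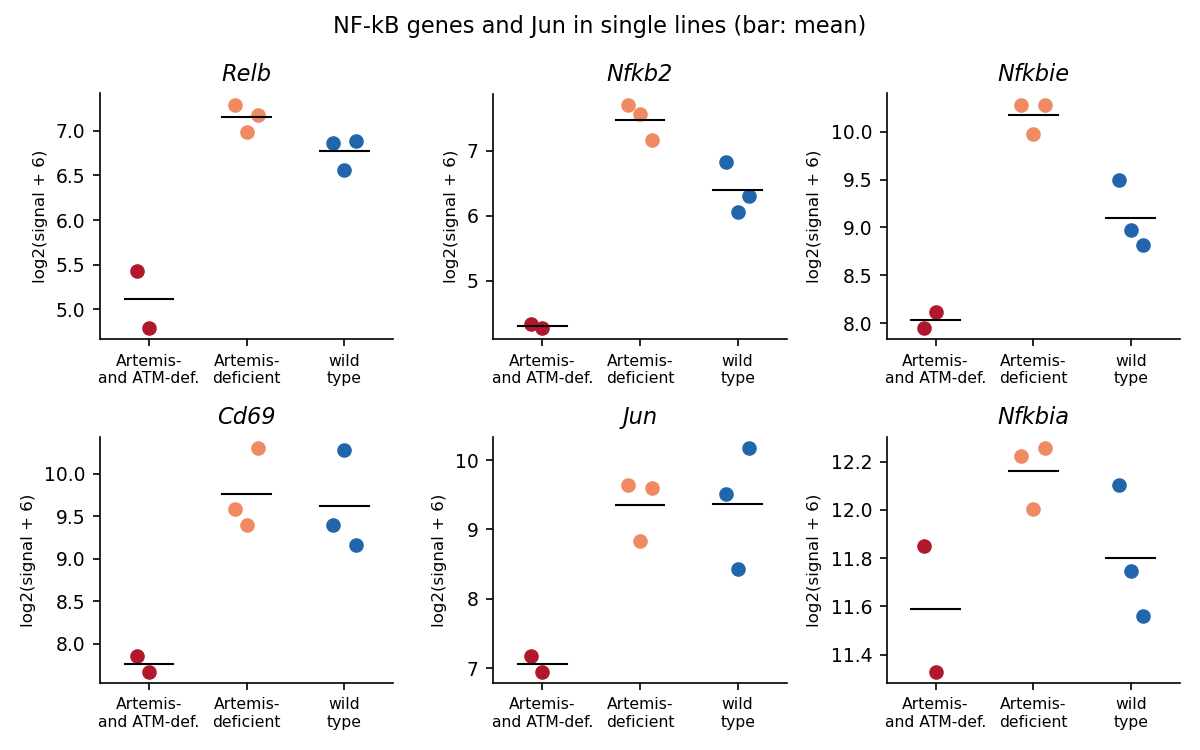
Levels, as log2(signal + 6), of 5 genes of the NF-kB list and of Jun in single lines, with Nfkb2 on its called probe set. Points are lines (2 Artemis- and ATM-deficient, 3 Artemis-deficient, 3 wild type), bars are group means and each panel has its own scale; in every panel but that of Nfkbia, both Artemis- and ATM-deficient lines lie below all other lines shown.

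The 250 bases before the annotated start of Nfkbie and of Nfkb2 are shown because both genes are regulators of NF-kB whose own promoters can be read for the kappaB consensus. That of Jun, the other transcription factor gene described with them, is shown for TGACNTCA, a motif of AP-1 and CREB family factors. The sequences are RefSeq's for GRCm38.p6, 5′ to 3′ on the gene's strand, and capitals mark the matches on either strand. The Nfkbie window is chr17:45555450-45555699 (plus strand), that of the first of 3 annotated Nfkb2 starts is chr19:46304487-46304736 (plus strand), and that of Jun is chr4:95052223-95052472 (minus strand).
Nfkbie: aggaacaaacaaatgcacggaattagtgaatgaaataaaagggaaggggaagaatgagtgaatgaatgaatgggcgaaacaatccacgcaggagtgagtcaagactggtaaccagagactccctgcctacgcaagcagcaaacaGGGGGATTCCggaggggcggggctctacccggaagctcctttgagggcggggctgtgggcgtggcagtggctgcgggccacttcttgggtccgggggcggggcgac
Nfkb2: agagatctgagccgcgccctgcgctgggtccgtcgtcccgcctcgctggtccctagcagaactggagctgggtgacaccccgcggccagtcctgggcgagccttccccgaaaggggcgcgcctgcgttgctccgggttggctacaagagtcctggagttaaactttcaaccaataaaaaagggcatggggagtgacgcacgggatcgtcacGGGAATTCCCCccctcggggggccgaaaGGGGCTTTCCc
Jun: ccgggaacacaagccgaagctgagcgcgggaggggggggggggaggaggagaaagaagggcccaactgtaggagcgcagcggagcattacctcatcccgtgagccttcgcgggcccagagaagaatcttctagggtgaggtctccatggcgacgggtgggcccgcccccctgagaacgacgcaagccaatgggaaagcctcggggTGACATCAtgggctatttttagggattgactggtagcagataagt
The kappaB consensus was found 1 time in the Nfkbie window and 4 times, counting overlapping matches and strands, in the Nfkb2 window. It was found in 7.25% of the 32817 windows of this length in the table, and TGACNTCA, with 1 match in the Jun window, in 7.49%. A match describes the letters and shows no binding.

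Of 14 tested AP-1 and immediate early genes, Jun alone was called, on both of its probe sets. Jun was 7.18 and 6.95 in Artemis- and ATM-deficient lines and 9.51, 8.43 and 10.17 in wild type lines (-2.31 ± 0.48, adjusted p = 0.0491). Its relatives differed in sign: Junb gave 0.66 ± 0.19 (adjusted p = 0.128) and Jund gave -0.35 ± 0.13 (adjusted p = 0.233), neither called. Dusp6, a phosphatase that acts on ERK, was 8.70 and 8.72 in Artemis- and ATM-deficient lines and 7.39, 7.57 and 6.32 in wild type lines, just outside the threshold (1.62 ± 0.35, adjusted p = 0.0552). Hspa1b, a heat shock protein of the HSP70 family named after its values were seen, was called lower on each of 3 probe sets, with differences of -2.43 to -1.96.

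The lists of cell cycle genes showed how far wild type lines differ among themselves. Of 26 tested S phase and replication genes, 25 had a negative difference (96.2%, against 53.7% of all genes), with a median of -0.52, but 1 was called. This was Rfc3, a subunit of the clamp loader, at 7.02 and 7.27 in Artemis- and ATM-deficient lines and 8.48, 9.02 and 9.15 in wild type lines (-1.74 ± 0.23, adjusted p = 0.00617). Rfc3 was low in Artemis-deficient lines too, at 7.15 to 7.54. Over the lines with a value, both Artemis- and ATM-deficient lines lay below all wild type lines in 10 of the 26 genes (38.5%, against 16.5% of all genes). Set against each gene's mean over the 3 wild type lines, the medians of the 26 genes were -0.47 and -0.76 in Artemis- and ATM-deficient lines. In wild type lines they were 0.75, -0.22 and -0.57. Wild type line 1 is itself part of the reference, so its high values lower the other medians. For 27 G2 and M phase genes these medians were 0.34 and 0.50 in Artemis- and ATM-deficient lines and 1.86, 0.05 and -1.83 in wild type lines. None of the 27 was called, and all 27 were higher in wild type line 1 than in wild type line 3, by a median of 3.65.

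**Figure D3:**
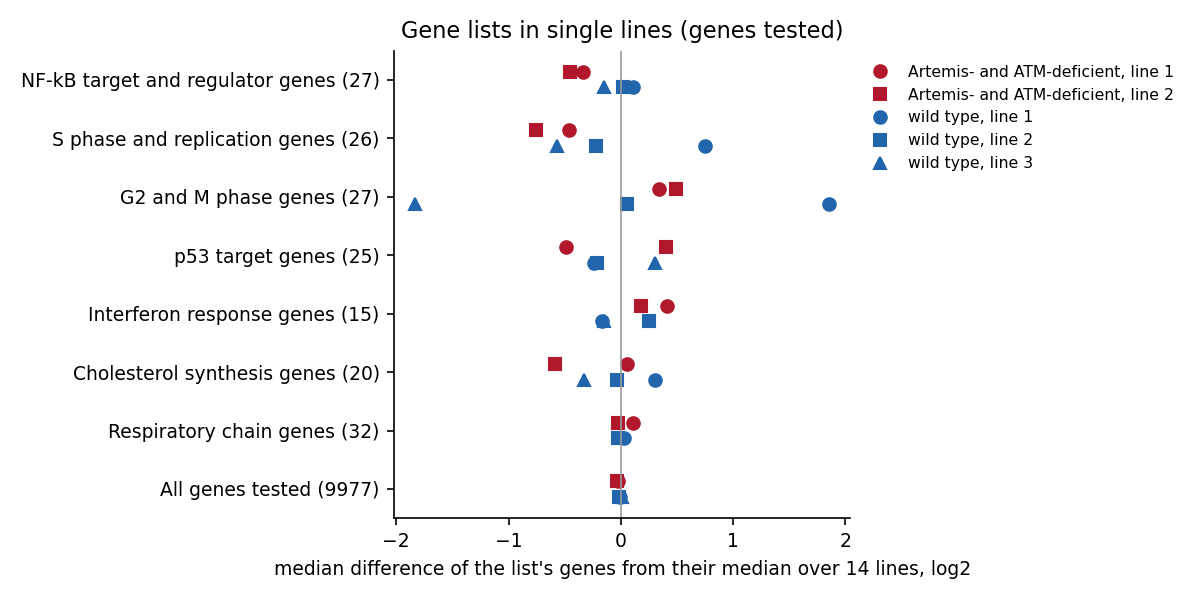
Median, over the tested genes of a list, of the difference of each line from the gene's mean over the 3 wild type lines, on the log2 scale. The number of genes is in brackets. The reference is this wild type mean, not the median over 14 lines that the axis label names. Red symbols are the 2 Artemis- and ATM-deficient lines and blue symbols the 3 wild type lines; the NF-kB genes are lowest in both red lines, while wild type lines 1 and 3 are far apart for G2 and M phase genes.

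The p53 target genes differed between the 2 Artemis- and ATM-deficient lines and also among the wild type lines, which is given with no test. None of 25 tested targets was called, with a median difference of -0.05. Of the 23 with a value in all 5 lines, 18 were lower in line 1 than in line 2 (78.3%, against 48.2% of all genes). Over the 23 the median of line 1 minus line 2 was -0.89. The range among the 3 wild type lines had a median of 1.09 in the 23 genes, against 0.50 in all genes. Cdkn1a, the p21 inhibitor of cyclin-dependent kinases, was 6.12 in Artemis- and ATM-deficient line 1 and 10.09 in line 2, against 8.33, 7.49 and 10.82 in wild type lines. Zmat3 was 4.20 and 10.20 in Artemis- and ATM-deficient lines and 8.90, 7.79 and 10.90 in wild type lines. Phlda3, an inhibitor of AKT, was 4.38 and 7.24 in Artemis- and ATM-deficient lines and 5.83, 5.67 and 8.12 in wild type lines. Line 1 was the lowest of the 5 lines in 11 of the 23 genes (47.8%, against 17.1% of all genes). Technical arrays of a line lay close together, with Cdkn1a at 6.14 and 6.10 on the arrays of line 1 and at 10.09 and 10.10 on those of line 2.

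**Figure D4:**
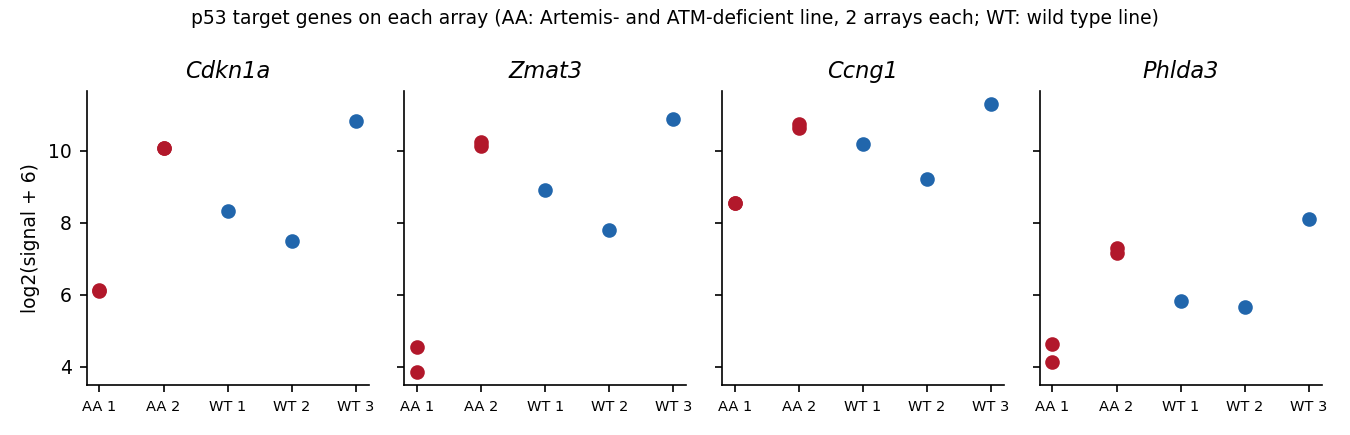
Levels, as log2(signal + 6), of 4 p53 target genes on the 4 Artemis- and ATM-deficient arrays (AA, red, 2 per line) and the array of each wild type line (WT, blue). In all 4 genes both arrays of AA line 1 lie below those of AA line 2, and wild type line 3 is the highest of the lines shown.

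Of 14 tested recombinase and pre-B receptor genes, 10 had a positive difference, as had 4622 of all 9977 genes. Vpreb3, a partner of the pre-B receptor, was called, at 12.14 and 12.39 in Artemis- and ATM-deficient lines and 11.74, 11.45 and 11.57 in wild type lines (0.68 ± 0.12, adjusted p = 0.0305). Vpreb3 lies on chromosome 10, which was shifted in Artemis- and ATM-deficient line 2 as given below. Rag1 was 10.82 and 9.0 in Artemis- and ATM-deficient lines and 11.18, 11.08 and 11.47 in wild type lines (-1.33 ± 0.42, adjusted p = 0.154), and Rag2 gave -1.14 ± 0.83 (adjusted p = 0.586). Immunoglobulin light chain probe sets, 17 in all and chosen after their values were seen, had negative differences without exception, with a median of -1.45. Of all genes, 53.7% had a negative difference. The brightest of the 17, which names Igkc among other kappa genes, was 11.60 and 8.73 in Artemis- and ATM-deficient lines 1 and 2. In wild type lines it was 11.67, 11.94 and 11.09. Igkv8-30 was 10.55 and 7.06 in Artemis- and ATM-deficient lines and 11.02, 11.11 and 9.97 in wild type lines. In these bright probe sets line 1 lay within the wild type range and only line 2 lay below it. Several of the 17 name the same genes, so they are not independent of each other. Of the 17, 2 were called, against 0.486% of all probe sets called lower, and 5 had both Artemis- and ATM-deficient lines below all wild type lines. Over the lines with a value, 6 of the 17 lay below, against 16.5% of all genes. Igkv6-14, a kappa variable segment, was 3.41 and 2.96 in Artemis- and ATM-deficient lines, 3.10 to 3.40 in Artemis-deficient lines and 5.82, 5.82 and 5.05 in wild type lines (-2.38 ± 0.39, adjusted p = 0.0186). Igkv6-14 passed the filter on low signals only through wild type lines. None of 6 heavy chain probe sets was called.

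Further lists had single calls, where 1.02% of all genes were called. Ets1, a transcription factor of B and T cells, was 10.93 and 11.13 in Artemis- and ATM-deficient lines and 10.26, 10.17 and 10.24 in wild type lines (0.81 ± 0.16, adjusted p = 0.0430), the 1 call among 26 B lineage transcription factors. Notch1, the receptor that directs progenitors to the T lineage, was 7.73 and 6.61 in Artemis- and ATM-deficient lines and 8.68, 8.51 and 9.10 in wild type lines (-1.59 ± 0.29, adjusted p = 0.0305), the 1 call among 6 early progenitor and pro-B markers. That list went the other way, with 4 of the 6 positive and a median of 0.41. Tgfb1, the cytokine TGF-beta 1, was 9.84 and 9.75 in Artemis- and ATM-deficient lines and 8.61, 8.12 and 8.62 in wild type lines (1.34 ± 0.25, adjusted p = 0.0343), the 1 call among 21 cytokine and receptor genes. H2-Ob, a chain of the class II modulator H2-O, was 11.19 and 11.27 in Artemis- and ATM-deficient lines and 9.92, 10.56 and 9.52 in wild type lines (1.23 ± 0.24, adjusted p = 0.0371), the 1 call among 20 antigen presentation genes. Xaf1 was the 1 call among 15 interferon response genes, and Cd69 the 1 call among 19 homing and adhesion genes. Of the 15 interferon response genes, 14 had a positive difference (median 0.28), as had 4622 of all 9977 genes.

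No member was called in 13 of the 22 pathway lists, whose median differences lay between -0.45 and 0.44, nor in 6 of the 7 lists of other cell types. Among 16 tested genes of the BCL-2 family and PIM kinases, Pim2 came closest, at 6.81 and 5.22 in Artemis- and ATM-deficient lines and 8.88, 9.29 and 7.78 in wild type lines (-2.63 ± 0.62, adjusted p = 0.0707). Brca2, among 16 homologous recombination genes, was 5.34 and 5.97 in Artemis- and ATM-deficient lines and 6.65, 6.44 and 6.40 in wild type lines (-0.84 ± 0.19, adjusted p = 0.0609). Herpud1, an endoplasmic reticulum degradation factor, was 11.86 and 11.81 in Artemis- and ATM-deficient lines and 12.32, 12.24 and 12.13 in wild type lines (-0.40 ± 0.08, adjusted p = 0.0515). In these 3 genes the Artemis- and ATM-deficient lines lay below all wild type lines, as in 16.5% of all genes, and none passed the test. The 15 end joining and 22 break signalling genes tested had medians of -0.09 and -0.12.

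Several called genes of lipid metabolism, grouped after their values were seen, moved in both directions. Elovl6, which lengthens saturated fatty acids, was 8.62 and 8.70 in Artemis- and ATM-deficient lines and 6.42, 5.57 and 7.02 in wild type lines (2.32 ± 0.30, adjusted p = 0.00591), and all 3 of its probe sets were called. Plin2, a coat protein of lipid droplets, was 8.84 and 9.34 in Artemis- and ATM-deficient lines and 6.28, 7.52 and 7.39 in wild type lines (2.03 ± 0.32, adjusted p = 0.0147). Both were nearly as high in Artemis-deficient lines, at 7.92 to 8.11 and 8.36 to 8.80. Decr1, an enzyme of fatty acid oxidation in mitochondria, was 4.17 and 3.28 in Artemis- and ATM-deficient lines and 5.69, 5.34 and 6.35 in wild type lines (-2.06 ± 0.36, adjusted p = 0.0265). Acadl, another such enzyme, fell by 0.98 ± 0.21 (adjusted p = 0.0492).

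The comparison adds 2 deficiencies at once, and the Artemis-deficient lines divide it. Artemis-deficient against wild type lines gave 57 called genes of 9974 (0.571%), 35 higher (0.351%) and 22 lower (0.221%), and 110 called probe sets (0.495%). Artemis- and ATM-deficient against Artemis-deficient lines gave 34 called genes (0.341%), 8 higher (0.0802%) and 26 lower (0.261%), and 63 called probe sets (0.283%). These comparisons share lines with each other and with the main one, so the steps are given side by side with no test of their likeness. The Artemis-deficient lines also differed among themselves in sex-linked genes: Xist was 11.90 in line 1 and 4.52 and 4.56 in lines 2 and 3. Uty, a gene of the Y chromosome, was 2.69 and 3.13 in Artemis- and ATM-deficient lines, 3.20 in Artemis-deficient line 1, 7.80 and 7.65 in Artemis-deficient lines 2 and 3, and 3.19 to 4.05 in wild type lines. The part of this difference in the steps was not tested. Of the 102 genes called here, 27 were also called in the first step (14 higher, 13 lower), 13 in the second (3 higher, 10 lower), 1 in both and 61 in neither. The 3 rises called with the loss of ATM were Kitl, Apobec3 and Shox2. Of these, Kitl and Shox2 passed the filter on low signals only through the lines that lack ATM. The 10 falls were Zfp760, Pepd, Tmlhe, Decr1, Relb, Cyba (a subunit of the phagocyte oxidase), the kinase Prkcd, the valyl-tRNA synthetase Vars, Limd2 and the hexosamine enzyme Gfpt1. Limd2 was 11.03 and 10.88 in Artemis- and ATM-deficient lines, 12.15 to 12.23 in Artemis-deficient lines and 11.99, 11.89 and 11.62 in wild type lines (-0.88 ± 0.10, adjusted p = 0.00464). The NF-kB list had medians of opposite sign in the steps, -0.57 for Artemis- and ATM-deficient minus Artemis-deficient lines and 0.38 for Artemis-deficient minus wild type lines. For p53 targets these medians were -0.95 and 0.70, and for S phase genes 0.00 and -0.53. The p53 steps did not hold in every line. Set against the wild type mean, the p53 medians were 1.16, 1.24 and -0.26 in Artemis-deficient lines 1, 2 and 3. In Artemis- and ATM-deficient lines 1 and 2 they were -0.49 and 0.40, so Artemis-deficient line 3 lay below the latter.

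Positions were used to ask whether whole chromosomes differ between lines. For each line and chromosome, the median difference of its genes from their median over 14 lines was taken. In the 5 lines, 97 of 100 such values lay between -0.07 and 0.04. The other 3 stood apart: chromosome 10 in Artemis- and ATM-deficient line 2 at 0.41, with 83.6% of 489 genes above the median, and chromosomes 5 and 18 in wild type line 2 at 0.36 and 0.35, with 84.2% of 640 and 81.2% of 245 genes above. Artemis- and ATM-deficient line 1 had no such shift on chromosome 10, and the 2 arrays of line 2, against the mean of the wild type lines, gave 0.41 and 0.40. Along chromosome 10 the shift in line 2 against the mean of the wild type lines ran through all 9 blocks of 50 to 91 genes, from 0.13 to 0.48. In wild type line 2, against the mean of the other wild type lines, it ran through all 12 blocks of 50 to 92 genes of chromosome 5 (0.16 to 0.47) and all 4 blocks of 50 to 98 genes of chromosome 18 (0.25 to 0.46). The cause was not tested.

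**Figure D5:**
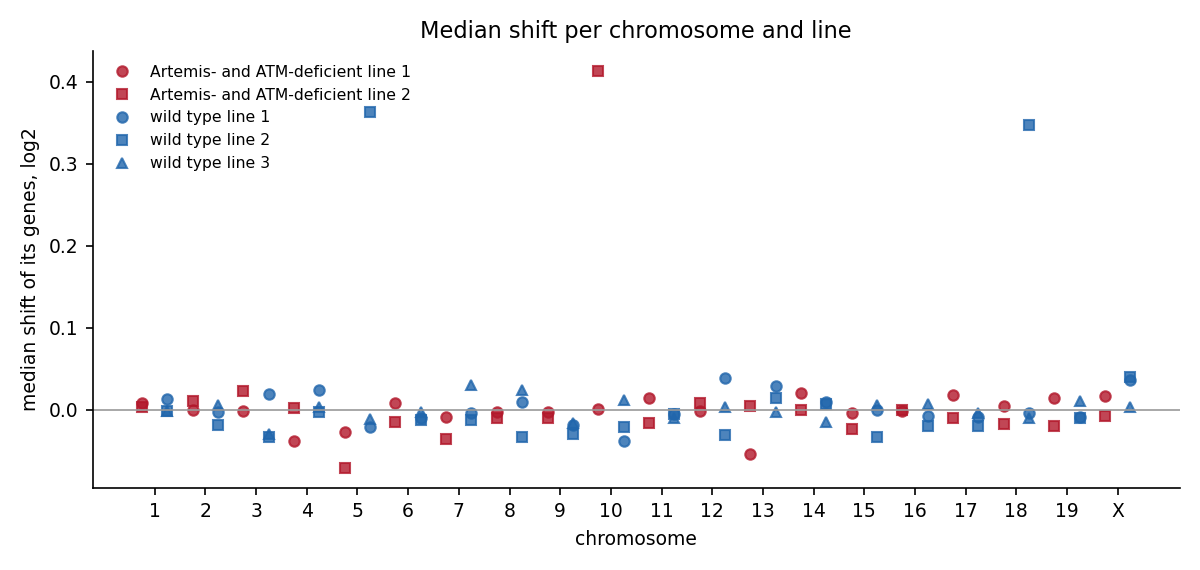
Median shift of the genes of each chromosome in single lines, as the log2 difference from each gene's median over the 14 lines. Red symbols are the 2 Artemis- and ATM-deficient lines and blue symbols the 3 wild type lines; chromosome 10 in Artemis- and ATM-deficient line 2 and chromosomes 5 and 18 in wild type line 2 lie near 0.4, and all other points lie near 0.

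Of the 102 called genes, 7 lie on chromosome 10, 6 of them higher (Kitl, Sec63, Palm, Ipcef1, Vpreb3 and Tcp11l2) and 1 lower (Pde7b). With each line centred per chromosome, a step chosen after the shifts were seen, Kitl stayed called at 3.15 ± 0.44 (adjusted p = 0.0112). Vpreb3 then gave 0.45 ± 0.11 (adjusted p = 0.0872) and Tcp11l2 0.45 ± 0.13 (adjusted p = 0.136), and both lost their call. On chromosomes 5 and 18, Bend4 (adjusted p = 0.0601), Cldn12 (adjusted p = 0.0570) and Sil1 (adjusted p = 0.0622) lost theirs, while Rfc3, on chromosome 5, kept its call at -1.58 ± 0.25 (adjusted p = 0.0151). Of the 102 called genes, 8 lost their call in all, the other 3 being Jun (adjusted p = 0.0510), Pik3cd and B3gnt2, which lie on chromosomes without such a shift. Of the 202 probe sets, 191 stayed called. The 100 tested genes nearest to Atm, 50 on each side in the order of GRCm38.p6, held 1 called gene (1.00%, against 1.02% of all genes), Dixdc1, 11 genes away. It was 5.74 in both Artemis- and ATM-deficient lines and 3.44, 2.93 and 3.38 in wild type lines (2.49 ± 0.35, adjusted p = 0.00931). Dixdc1 passed the filter on low signals only through the Artemis- and ATM-deficient lines. The 51 tested genes nearest to Dclre1c held none.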

How the data were processed

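Transcript levels were measured on Affymetrix Mouse 430 v2 arrays, read with GeneChip Operating Software 1.2.0.037 per the labels' protocols. The deposited values are log10 signals (the base was inferred from the values) for 44200 probe sets. The sources used here do not give the authors' summary method or scaling, and no detection calls were used. Values were returned to signals, and log2(signal + 6) was taken, 6 being their 25th percentile over the lines. Technical arrays were averaged within a line. Probe sets were kept when at least 2 of 14 line samples reached the median signal of their array (22269 kept, 22220 tested in this comparison). Kitl, Shox2, Dixdc1 and Acy3 passed only through the Artemis- and ATM-deficient lines, and Igkv6-14 and Bend4 only through wild type lines. Such genes entered the test by being high in 1 of the groups compared, so the direction of their calls depends on the filter. Lines were grouped by source label. The groups were wild type, RAG-2-deficient, Artemis-deficient, Artemis- and ATM-deficient, and Artemis-deficient expressing dominant negative IkB. Differences were fitted with limma 3.58.1 in R 4.3.3 over all 5 groups of lines, with 9 residual and 3.09 prior degrees of freedom, eBayes with an intensity trend and Benjamini-Hochberg adjustment over all probe sets. The fit was tested on simulated data.

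Of the probe sets, 34294 name 1 gene, 916 several and 8990 none; symbols were updated through RefSeq (GRCm38.p6), which matched 34099. A gene is represented by its brightest probe set. Named genes are the targeted and RAG genes, the 15 largest rises and falls among called genes whose groups do not overlap, up to 5 called members of each of 29 gene lists and up to 3 uncalled members of smallest p; any other gene was picked with its values known, as the text says or as a count by step or chromosome shows. The comparison, the members and the lists were chosen with earlier results of these data known. Alternatives were the pseudocount, the filter, quantile normalization, the samples in the fit, the handling of technical arrays, the trend, each line left out, all probe sets of a gene averaged and chromosome centring. Python 3.11.15 with matplotlib 3.10.9 drew the figures. Bone marrow samples were not used here.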

Additional observations from a re-analysis of the deposited data

How the results depend on the processing

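The main count of 202 called probe sets was 10 with only the 2 groups compared in the fit and 383 with the 4 technical arrays as a random block, and it ranged from 27 to 282 as each line was left out. A lone Artemis- and ATM-deficient line is then assumed to vary like the other groups. The low end was without Artemis- and ATM-deficient line 2, and the high end without wild type line 2. The other settings tried gave 144 (no filter) to 210 (pseudocount at the median signal) called probe sets. For Artemis- and ATM-deficient against Artemis-deficient lines, 63 in the main fit, the count was 62 to 65 under other settings and 30 to 77 with lines left out. For Artemis-deficient against wild type lines, 110 in the main fit, these ranges were 104 to 119 and 60 to 186. Leaving out lines of the last 2 comparisons, and centring by chromosome, were chosen after seeing the data.

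Of 107 called results followed, 13 stayed called without each line in turn where they were still tested: Atm (dimmer probe set), Relb, Rfc3, Apobec3, Cd244a, Itpr2, Zfp760, Ccdc74a, Dixdc1, Kitl, Shox2 and the unnamed probe sets 1455869_at and 1458719_at. Of these, Kitl, Shox2 and Dixdc1 were tested in only 3 of the 5 such fits. Without either Artemis- and ATM-deficient line they failed the filter, so their dependence on those 2 lines was not tested. Ccdc74a and the unnamed probe sets 1455869_at and 1458719_at stayed called under every alternative run. With only the 2 groups in the fit, 7 of the 107 stayed called. Counts of NF-kB genes called lower were 3 in the main fit, 0 with only the 2 groups and 1 without wild type line 1 or either Artemis- and ATM-deficient line. The sign of Ifi209 turned (-0.36) when its probe sets were averaged, and that of Nfkbia, never called, was negative (-0.47) without Artemis- and ATM-deficient line 1 and positive (0.049) without line 2. No paired analysis was possible because the replicate numbers only name arrays and pair no samples across groups. With 2 lines against 3, small differences were not detectable.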
